A study of Mus musculus with 6 samples.

Results

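The genes described here are 10 leukocyte integrin and adhesion genes: the integrin alpha chains Itgal, Itgam, Itgax, Itgad and Itga4, the beta chains Itgb2, Itgb1 and Itgb7, and the ligands Icam1 and Vcam1. They were chosen by name from 16058 genes listed in the deposited files, at a time when earlier results of these data were known. All 10 were listed in every library and all 10 were among the 11616 genes tested. RNA was sequenced from macrophage fractions that had been sorted from the spleens of C57BL/6 mice aged 6 to 8 weeks by the surface antigens Ly6c and F4/80. T-ALL mice had each received 1000000 GFP-positive leukemia cells without irradiation and were taken at day 15, while normal mice were taken at day 0. In each state 3 subsets were sorted, Ly6cloF4/80hi, Ly6cloF4/80lo and Ly6chiF4/80lo, with 1 library for each subset and state and thus 6 libraries in all. T-ALL is a model of T cell acute lymphoblastic leukemia in hosts that keep their own marrow and immune cells. Whether separate mice or pools of mice gave the fractions of a state is left unsaid in the labels. With 1 library per subset and state, no p-value below covers variation between replicate libraries of a group. The spread in the fit of subset and state is what those factors leave unexplained among the 6 libraries, and it may be technical.

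Integrins are receptors made of 1 alpha and 1 beta chain, and neither chain reaches the cell surface in quantity without its partner. The beta chain CD18, encoded by Itgb2, pairs with CD11a (Itgal) to give LFA-1, with CD11b (Itgam) to give Mac-1, with CD11c (Itgax) to give complement receptor p150,95, and with CD11d (Itgad). The alpha chain of VLA-4, encoded by Itga4, pairs with the Itgb1 or the Itgb7 product. Icam1 is a ligand of LFA-1 and Mac-1, and Vcam1 is a ligand of VLA-4 and also binds CD11d integrin. In the mouse spleen Vcam1 is a known surface marker of the iron-recycling macrophages of the red pulp.

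The libraries held 6550000 to 8470000 fragments, as estimated from the spacing of low values, and FPKM (fragments per kilobase of transcript and of total mapped fragments, scaled to 1000000) is the scale of every level given here. The highest counting error of any of the 10 genes was 8.89%, for Itgad where it was lowest, and no other gene exceeded 4.41%. The sort antigens followed the gates. Adgre1, which encodes F4/80, stood at 234 and 529 FPKM in T-ALL and normal Ly6cloF4/80hi and at 47.3 to 86.7 FPKM in the other 4 libraries. Ly6c2 stood at 1405 and 482 FPKM in T-ALL and normal Ly6chiF4/80lo and at no more than 21.4 FPKM elsewhere. The macrophage gene Csf1r was listed at 218 to 1488 FPKM in the 6 libraries. Markers of other cell types were also present: 9 neutrophil genes summed to 43503 and 13013 FPKM in T-ALL and normal Ly6chiF4/80lo, and 10 erythroid genes summed to 2366 and 229 FPKM in T-ALL and normal Ly6cloF4/80hi. All 9 neutrophil and all 10 erythroid genes were listed above 0 in every library. The 6 plasma cell genes summed to 14596 and 5828 FPKM in T-ALL and normal Ly6chiF4/80lo, and to 459.8 to 1715 FPKM elsewhere. The 7 B cell genes summed to 1155 to 2273 FPKM in T-ALL and to 1390 to 3336 FPKM in normal. The 7 myeloid progenitor genes summed to 86.65 to 1747 FPKM in T-ALL and to 27.47 to 243 FPKM in normal. In sorted bulk fractions such as these, fewer cells of a type and less RNA per cell cannot be told apart.

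Itgam, Itgax and Itgad are consecutive coding genes on mouse chromosome 7, where Itgal also lies, and they nonetheless had 3 different profiles over the subsets. The upstream stretches of Itgam and Itgax are shown because these neighbours differed most plainly in which F4/80lo subset held the higher level. Both are 150 bases on the plus strand ending at the base before the annotated start (RefSeq, GRCm38.p6), at chr7:128062490-128062639 for Itgam and chr7:128129400-128129549 for Itgax. Capitals mark GAGGAA or its reverse complement TTCCTC, a core sequence that the myeloid factor PU.1 can bind, searched on both strands.
Itgam: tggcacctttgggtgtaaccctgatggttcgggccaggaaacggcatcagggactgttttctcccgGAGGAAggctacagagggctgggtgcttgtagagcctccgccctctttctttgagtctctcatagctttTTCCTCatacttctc
Itgax: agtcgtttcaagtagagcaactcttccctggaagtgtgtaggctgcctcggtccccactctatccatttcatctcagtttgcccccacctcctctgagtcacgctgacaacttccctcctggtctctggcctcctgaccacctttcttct
The Itgam stretch held 2 matches, which begin 84 and 15 bases before the start, and the Itgax stretch held 0. These letters were found in 4754 of 32851 promoter stretches of the same length (14.5%), and in 2 of the 6 genes of the group that the table holds, Itgam and Itgb1. The matches are a description of sequence and are not evidence of binding. Only these exact letters were searched, so 0 matches does not mean that a stretch lacks sites for PU.1.

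Itgad and Vcam1 were the genes of the group that varied most, with an 86.9-fold and an 82.1-fold range over the 6 libraries, and both were concentrated in Ly6cloF4/80hi. Itgad, the CD11d chain of tissue macrophages, stood at 123 and 409 FPKM in T-ALL and normal Ly6cloF4/80hi, at 5.17 and 16.9 FPKM in Ly6cloF4/80lo, and at 4.71 and 12.6 FPKM in Ly6chiF4/80lo. Both Ly6cloF4/80hi values lay above the other 4, as they also did for Vcam1 and, by a small margin, for Icam1. This held for 9.27% of tested genes. The fitted difference of Ly6cloF4/80hi from Ly6chiF4/80lo was 4.68 on the scale of log2(FPKM + 1), with an SE of 0.18 and an adjusted p of 0.000404 (limma, all 6 libraries, state as a block). Against Ly6cloF4/80lo it was 4.42 (SE 0.18, limma adjusted p = 0.000581). Ly6cloF4/80lo and Ly6chiF4/80lo differed by 0.25 (SE 0.18, limma adjusted p = 0.404), which did not pass. Adding 1 FPKM before taking logs makes these differences smaller than the plain ratios for a gene as low as Itgad in the F4/80lo subsets. In the annotation of GENCODE M21, 8.43% of the 50-base stretches of Itgad transcripts also occur in Itgax, so some fragments could have been assigned to either. The genes Cox6a2, Gm39091 and 4931431B13Rik overlap Itgad in the RefSeq annotation, and whether counting used strand is not given in the sources used here. Cox6a2 was highest in Ly6chiF4/80lo (9.46 and 16.1 FPKM in T-ALL and normal), where Itgad was lowest.

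Vcam1, the endothelial and macrophage ligand of VLA-4, reached 701 and 2046 FPKM in T-ALL and normal Ly6cloF4/80hi. Its levels in T-ALL and normal were 24.9 and 80.4 FPKM in Ly6cloF4/80lo and 25.6 and 60.7 FPKM in Ly6chiF4/80lo. Among all genes Vcam1 ranked 113th by FPKM in T-ALL Ly6cloF4/80hi and 18th in normal Ly6cloF4/80hi. The fitted difference of Ly6cloF4/80hi was 4.89 from Ly6chiF4/80lo and 4.71 from Ly6cloF4/80lo (SE 0.20 each, limma adjusted p = 0.000404 and 0.000581). The F4/80lo subsets differed by 0.18 (SE 0.20, limma adjusted p = 0.572), and the sign of that small difference turned after median-ratio rescaling (-0.03) and without normal Ly6chiF4/80lo (-0.01). Endothelial cells also carry Vcam1: the 8 endothelial markers summed to 22.0 and 40.5 FPKM in T-ALL and normal Ly6cloF4/80hi. Of these sums, Stab2 alone gave 13.2 and 39.4 FPKM. The sums were 12.5 and 3.61 FPKM in Ly6cloF4/80lo and 5.1 and 5.14 FPKM in Ly6chiF4/80lo. Tek, Emcn, Tie1 and Cldn5 were at 0 in at least 1 library. The part of endothelial cells in the Vcam1 levels was not tested.

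**Figure D1:**
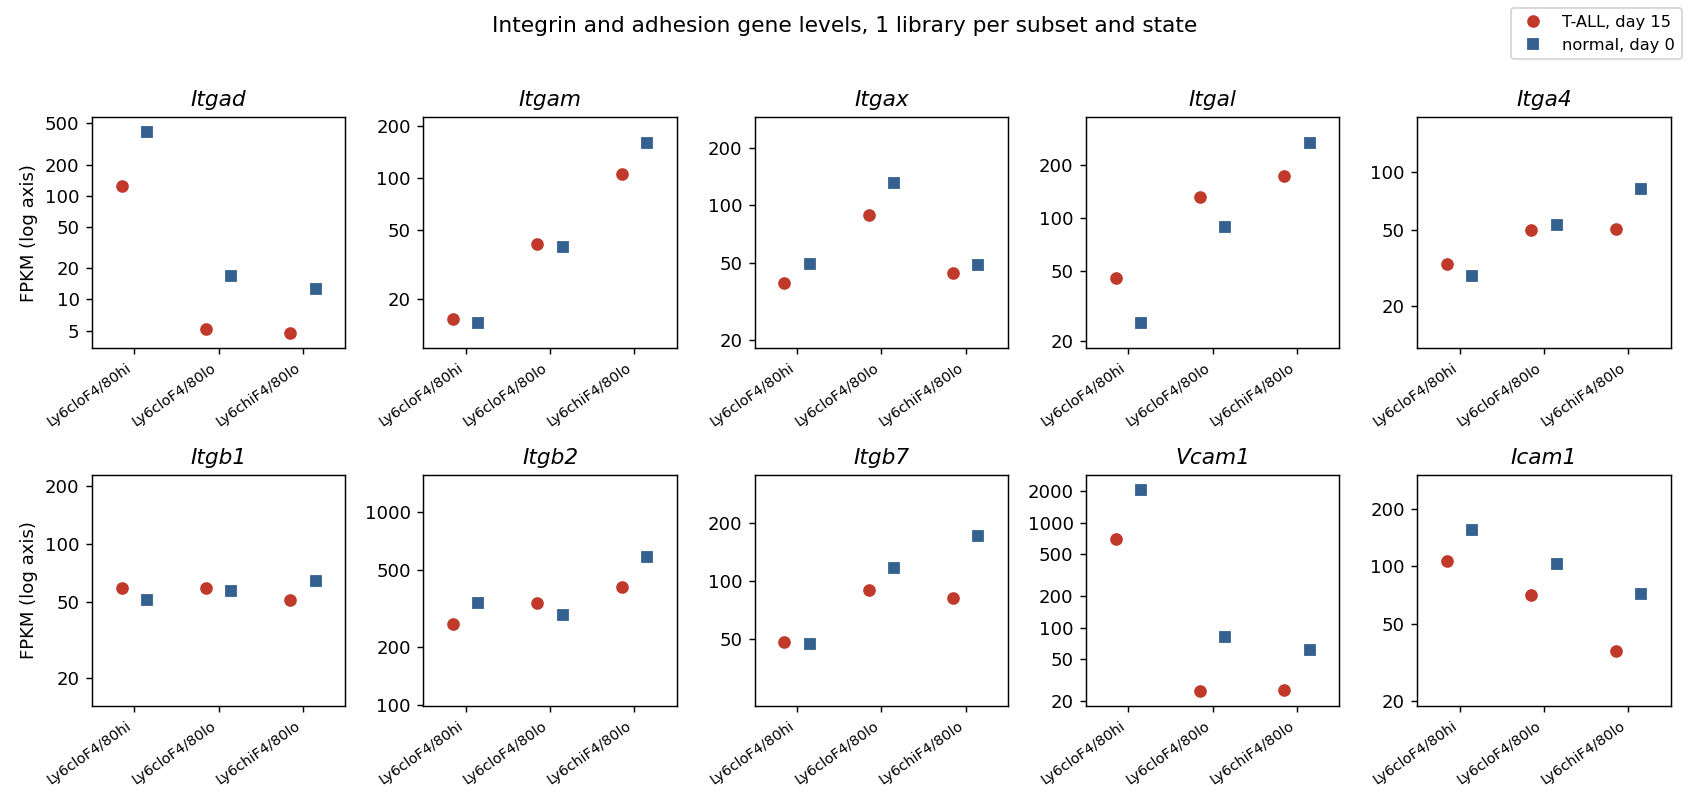
FPKM (log axes, whose limits differ between panels) of each of the 10 genes in T-ALL (circles) and normal (squares) libraries of the 3 subsets, 1 library per point. Itgad and Vcam1 stand far higher in Ly6cloF4/80hi than in the F4/80lo subsets, Itgam and Itgal run the other way, and Itgb1 stays between 51.3 and 64.3 FPKM throughout.

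Vcam1 and Itgad moved in near constant proportion. The ratio of their FPKM values was 5.71, 4.82 and 5.42 in T-ALL Ly6cloF4/80hi, Ly6cloF4/80lo and Ly6chiF4/80lo, against 5, 4.77 and 4.82 in the normal libraries in that order, while either gene alone varied more than 80-fold. The Pearson r of their log2(FPKM + 1) values over the 6 libraries was 0.999, which is a description of libraries that share subset and state. No other pair of the group came as close, and the next was Itga4 and Itgb7 at 0.976, then Itgam and Itgal at 0.955. The genes outside the group most like both were C6, a component of the terminal complement pathway, and Pcolce2, a collagen-processing enhancer (r = 0.999 or above with each). C6 stood at 69.96 and 187 FPKM in T-ALL and normal Ly6cloF4/80hi and at 2 to 7.93 FPKM in the other 4 libraries.

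**Figure D2:**
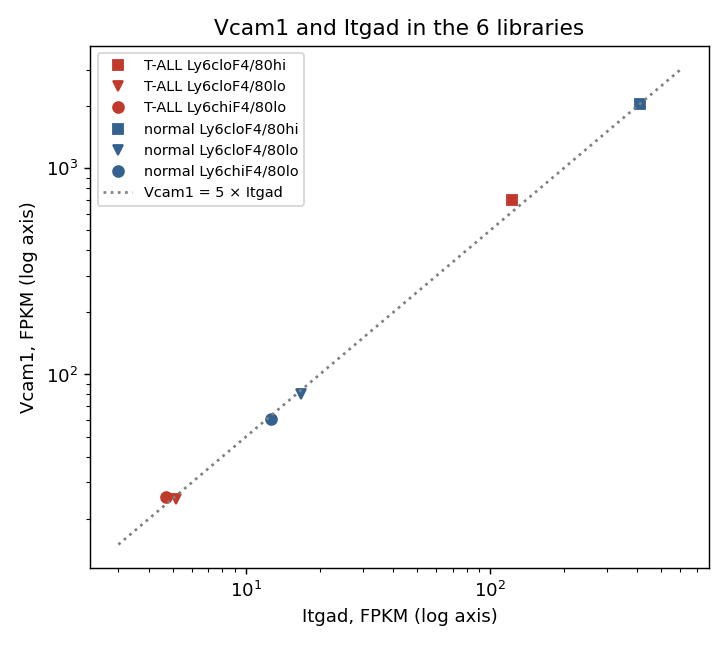
Vcam1 against Itgad, both in FPKM on log axes, with 1 point per library. The dotted line marks a Vcam1 level 5 times that of Itgad, and the 6 libraries lie close to it over the whole range.

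Icam1, a ligand of LFA-1 and Mac-1 that inflammatory signals induce, was graded rather than concentrated. It stood at 106 and 154 FPKM in T-ALL and normal Ly6cloF4/80hi, at 70.97 and 102.5 FPKM in Ly6cloF4/80lo, and at 36.4 and 71.5 FPKM in Ly6chiF4/80lo. The subsets kept this order in both states, a profile found in 8.80% of tested genes, although normal Ly6cloF4/80lo lay almost level with T-ALL Ly6cloF4/80hi. Ly6cloF4/80hi exceeded Ly6chiF4/80lo by 1.31 (SE 0.19, limma adjusted p = 0.0105). Neither neighbouring step passed: Ly6cloF4/80hi was above Ly6cloF4/80lo by 0.58 (limma adjusted p = 0.173) and Ly6cloF4/80lo above Ly6chiF4/80lo by 0.73 (limma adjusted p = 0.086). Vcam1 levels were 6.59 and 13.3 times those of Icam1 in T-ALL and normal Ly6cloF4/80hi, and 0.351 to 0.848 times in the other libraries.

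Itgam and Itgal, the alpha chains of Mac-1 and LFA-1, had the opposite gradient, with Ly6cloF4/80hi at the bottom. Itgam stood at 15.4 and 14.6 FPKM in T-ALL and normal Ly6cloF4/80hi, at 41.5 and 39.8 FPKM in Ly6cloF4/80lo, and at 105 and 160 FPKM in Ly6chiF4/80lo. The subsets kept this order in both states, as they did for Itgal and Itga4 and for 7.12% of tested genes. Itgam was lower in Ly6cloF4/80hi than in Ly6chiF4/80lo by a log2 difference of -3.03 (SE 0.22, limma adjusted p = 0.00108), and each step between passed: -1.38 for Ly6cloF4/80hi against Ly6cloF4/80lo (limma adjusted p = 0.0289) and -1.65 for Ly6cloF4/80lo against Ly6chiF4/80lo (limma adjusted p = 0.0184). Both steps between neighbours missed the threshold when normal Ly6cloF4/80lo was left out (limma adjusted p = 0.112 and 0.118), and the first also without T-ALL Ly6cloF4/80lo (0.104) or normal Ly6cloF4/80hi (0.185). Neutrophils carry Mac-1 too, and the 9 neutrophil markers summed to 206 and 329 FPKM in T-ALL and normal Ly6cloF4/80hi, 109 and 377 FPKM in Ly6cloF4/80lo, and 43503 and 13013 FPKM in Ly6chiF4/80lo. The 7 classical monocyte markers summed to 7398 and 12985 FPKM in T-ALL and normal Ly6chiF4/80lo, of which Lyz2 alone gave 5901 and 12010 FPKM. Their sums were 884 and 787 FPKM in Ly6cloF4/80hi, and 1867 and 2289 FPKM in Ly6cloF4/80lo. The part of either list in the Itgam difference was not tested. In GENCODE M21, 66.3% of the 50-base stretches of Itgam also occur in the predicted gene Gm49368, and the annotation used for counting is not given in the sources used here.

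Itgal stood at 45.5 and 25.5 FPKM in T-ALL and normal Ly6cloF4/80hi, at 131 and 88.3 FPKM in Ly6cloF4/80lo, and at 173 and 265 FPKM in Ly6chiF4/80lo. It was lower in Ly6cloF4/80hi than in Ly6chiF4/80lo by a log2 difference of -2.62 (SE 0.35, limma adjusted p = 0.00776), a call that missed the threshold without normal Ly6cloF4/80hi (0.0585). Ly6cloF4/80hi against Ly6cloF4/80lo gave -1.63 (SE 0.35, limma adjusted p = 0.062), and Ly6cloF4/80lo against Ly6chiF4/80lo gave -0.99 (SE 0.35, limma adjusted p = 0.147). The first of these passed in the fit on the 4 libraries of those subsets (limma adjusted p = 0.00923). For this difference the fits without T-ALL or normal Ly6chiF4/80lo rest on those same 4 libraries and are not separate checks. The second changed side of the threshold without T-ALL Ly6chiF4/80lo, at -1.64, a fit that leaves 1 library in that subset. Lymphocytes are rich in LFA-1, and the 9 T cell markers summed to 144 and 119 FPKM in T-ALL and normal Ly6cloF4/80hi. In Ly6cloF4/80lo they summed to 146 and 243 FPKM, and in Ly6chiF4/80lo to 102 and 171 FPKM. Trac, a member of this list, was absent from the files of all libraries and was set to 0 FPKM. The 7 NK cell markers summed to 174.5 and 146.5 FPKM in T-ALL and normal Ly6cloF4/80hi. They summed to 333 and 346 FPKM in Ly6cloF4/80lo, and to 305 and 674 FPKM in Ly6chiF4/80lo. The 7 B cell markers summed to 1820 and 1751 FPKM in T-ALL and normal Ly6cloF4/80hi. Their sums were 2273 and 3336 FPKM in Ly6cloF4/80lo, and 1155 and 1390 FPKM in Ly6chiF4/80lo. The part of these lists in the Itgal levels was not tested.

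Itgax, the CD11c chain that marks dendritic cells and some macrophages, had its own profile and was highest in Ly6cloF4/80lo. It stood at 39.6 and 49.8 FPKM in T-ALL and normal Ly6cloF4/80hi, at 89.1 and 131 FPKM in Ly6cloF4/80lo, and at 44.5 and 48.7 FPKM in Ly6chiF4/80lo. The Ly6cloF4/80lo library was the highest of the 3 in each state. The log2 difference was -1.26 for Ly6cloF4/80hi against Ly6cloF4/80lo (SE 0.18, limma adjusted p = 0.0203) and 1.20 for Ly6cloF4/80lo against Ly6chiF4/80lo (SE 0.18, limma adjusted p = 0.0246). Ly6cloF4/80hi and Ly6chiF4/80lo differed by -0.07 (SE 0.18, limma adjusted p = 0.842). Both calls missed the threshold without normal Ly6cloF4/80lo (limma adjusted p = 0.198 and 0.192). The rise in Ly6cloF4/80lo over Ly6chiF4/80lo also missed the threshold without T-ALL Ly6cloF4/80lo (0.0586), T-ALL Ly6chiF4/80lo (0.0664) or normal Ly6chiF4/80lo (0.072), and after median-ratio rescaling (0.0509), and the call against Ly6cloF4/80lo without normal Ly6cloF4/80hi (0.114). The 8 dendritic cell markers summed to 94.5 and 150.4 FPKM in T-ALL and normal Ly6cloF4/80hi, 199 and 389 FPKM in Ly6cloF4/80lo, and 100.5 and 373 FPKM in Ly6chiF4/80lo. Their part in the Itgax levels was not tested.

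The make-up of the CD11 chains differed between the subsets. Itgad made up 55.0% and 82.0% of the summed FPKM of Itgal, Itgam, Itgax and Itgad in T-ALL and normal Ly6cloF4/80hi, but at most 6.11% in the other 4 libraries. Itgal held the largest share in both Ly6chiF4/80lo libraries, with 52.8% in T-ALL and 54.5% in normal. In Ly6cloF4/80lo the leading chain differed by state: Itgal held 49.0% and Itgax 33.4% in T-ALL, against 32.0% and 47.4% in normal. Each share comes from 1 library and has no replicate check, so these differences were not tested.

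**Figure D3:**
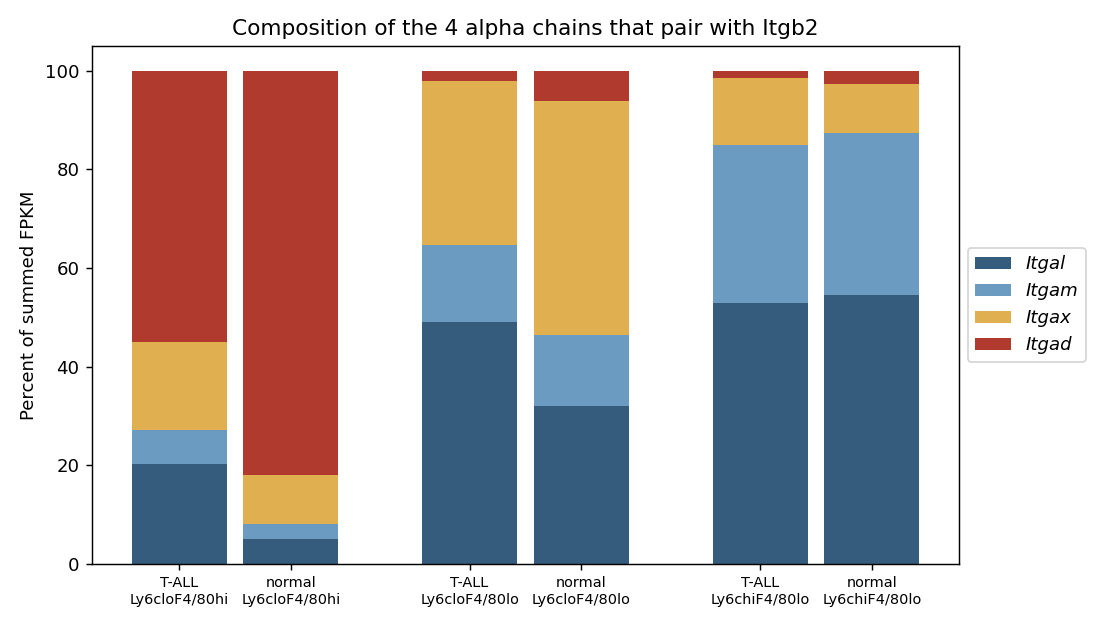
Share of each CD11 chain gene in their summed FPKM (percent), with T-ALL beside normal for each subset and 1 library per bar. Itgad fills 55.0% of the T-ALL and 82.0% of the normal Ly6cloF4/80hi bar, Itgax is largest in normal Ly6cloF4/80lo, and Itgal leads in both Ly6chiF4/80lo bars.

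Itgb2, the shared CD18 chain, had a 2.24-fold range over the 6 libraries, smaller than that of its partners, which ran from 3.3-fold for Itgax to 86.9-fold for Itgad. It stood at 262 and 339 FPKM in T-ALL and normal Ly6cloF4/80hi, at 338 and 294 FPKM in Ly6cloF4/80lo, and at 408 and 588 FPKM in Ly6chiF4/80lo. Both Ly6chiF4/80lo libraries lay above the other 4, as in 8.39% of tested genes, yet no comparison between subsets passed (log2 -0.72, -0.63 and -0.08 for Ly6cloF4/80hi against Ly6chiF4/80lo, Ly6cloF4/80lo against Ly6chiF4/80lo and Ly6cloF4/80hi against Ly6cloF4/80lo, limma adjusted p = 0.127, 0.186 and 0.893). The ratio of Itgb2 to the summed CD11 chains was 1.07 to 1.27 in 5 libraries. In the remaining one, normal Ly6cloF4/80hi, it was 0.679, since Itgad alone exceeded Itgb2 there.

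The VLA-4 chain Itga4 and its partner Itgb7 were lower in Ly6cloF4/80hi, and Itgb1 was nearly level. Itga4 stood at 33.3 and 28.6 FPKM in T-ALL and normal Ly6cloF4/80hi, at 49.7 and 53.2 FPKM in Ly6cloF4/80lo, and at 50.6 and 81.2 FPKM in Ly6chiF4/80lo. Itgb7 stood at 48.1 and 46.7 FPKM in T-ALL and normal Ly6cloF4/80hi, at 90.2 and 117 FPKM in Ly6cloF4/80lo, and at 81.4 and 171 FPKM in Ly6chiF4/80lo. Both Ly6cloF4/80hi libraries were the lowest for either gene, as for Itgam and Itgal and for 9.87% of tested genes. Ly6cloF4/80hi fell below Ly6chiF4/80lo by a log2 difference of -1.03 for Itga4 (SE 0.24, limma adjusted p = 0.0413) and -1.30 for Itgb7 (SE 0.28, limma adjusted p = 0.0327). These calls lay near the threshold. Without normal Ly6chiF4/80lo, normal Ly6cloF4/80lo or normal Ly6cloF4/80hi the adjusted p was 0.141, 0.0599 and 0.199 for Itga4 and 0.102, 0.0505 and 0.157 for Itgb7, and Itga4 also missed the threshold without T-ALL Ly6cloF4/80lo (0.0577) or without trend and robust prior (0.0543). No other comparison between subsets passed for either gene in the fit to all 6 libraries. For Itgb7, Ly6cloF4/80hi against Ly6cloF4/80lo (-1.10, limma adjusted p = 0.0939) did pass in the fit on the 4 libraries of those subsets (0.0385). For this difference the fits without T-ALL or normal Ly6chiF4/80lo rest on those same 4 libraries and are not separate checks. It also changed side of the threshold without T-ALL Ly6cloF4/80hi, a fit that leaves 1 library in that subset. The gene Cerkl, at 3.54 to 7.02 FPKM, overlaps Itga4 in the RefSeq annotation. The part of plasma cells, B cells and myeloid progenitors in the Itga4 and Itgb7 levels was not tested.

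Itgb1, which pairs with many alpha chains, ranged only 1.25-fold, between 51.3 and 64.3 FPKM. Its 3 comparisons between subsets gave log2 values of -0.06, 0.01 and -0.07 (SE 0.19 each), none of which passed. Itgb7 made up 45.0% and 47.6% of the sum of Itgb1 and Itgb7 in T-ALL and normal Ly6cloF4/80hi, 60.5% and 67.2% in Ly6cloF4/80lo, and 61.3% and 72.7% in Ly6chiF4/80lo. The share was thus lower in Ly6cloF4/80hi in each state.

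Counted over the group, Ly6cloF4/80hi against Ly6chiF4/80lo gave 7 of 10 genes that passed, 3 higher (Itgad, Vcam1, Icam1) and 4 lower (Itgam, Itgal, Itga4, Itgb7). Among all tested genes 12.8% passed, 7.10% higher and 5.68% lower, and 55.6% of calls were higher, or 45.4% after median-ratio rescaling. Leaving out normal Ly6cloF4/80hi left 4 of the 10. Ly6cloF4/80hi against Ly6cloF4/80lo gave 4 of 10, with Itgad and Vcam1 higher and Itgam and Itgax lower, against 3.56% of tested genes in either direction, 2.66% higher and 0.904% lower. That count was 2 without normal Ly6cloF4/80lo or normal Ly6cloF4/80hi. Ly6cloF4/80lo against Ly6chiF4/80lo gave 2 of 10, with Itgax higher and Itgam lower, against 4.73% of tested genes in either direction, 2.68% higher and 2.05% lower. It was 0 without normal Ly6cloF4/80lo and 1 without T-ALL Ly6cloF4/80lo or normal Ly6chiF4/80lo, and the share of higher calls among all genes was 56.6%, or 35.8% after rescaling. The rescaling moved the median of all genes by -0.10 and -0.18 in the 2 comparisons with Ly6chiF4/80lo. With no filter on low values the 3 counts were 5, 2 and 0, and with no block 3, 0 and 0. The group's median was -0.39, -0.40 and -0.09 in these 3 comparisons, beside 0.12, -0.10 and 0.19 for all tested genes.

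**Figure D4:**
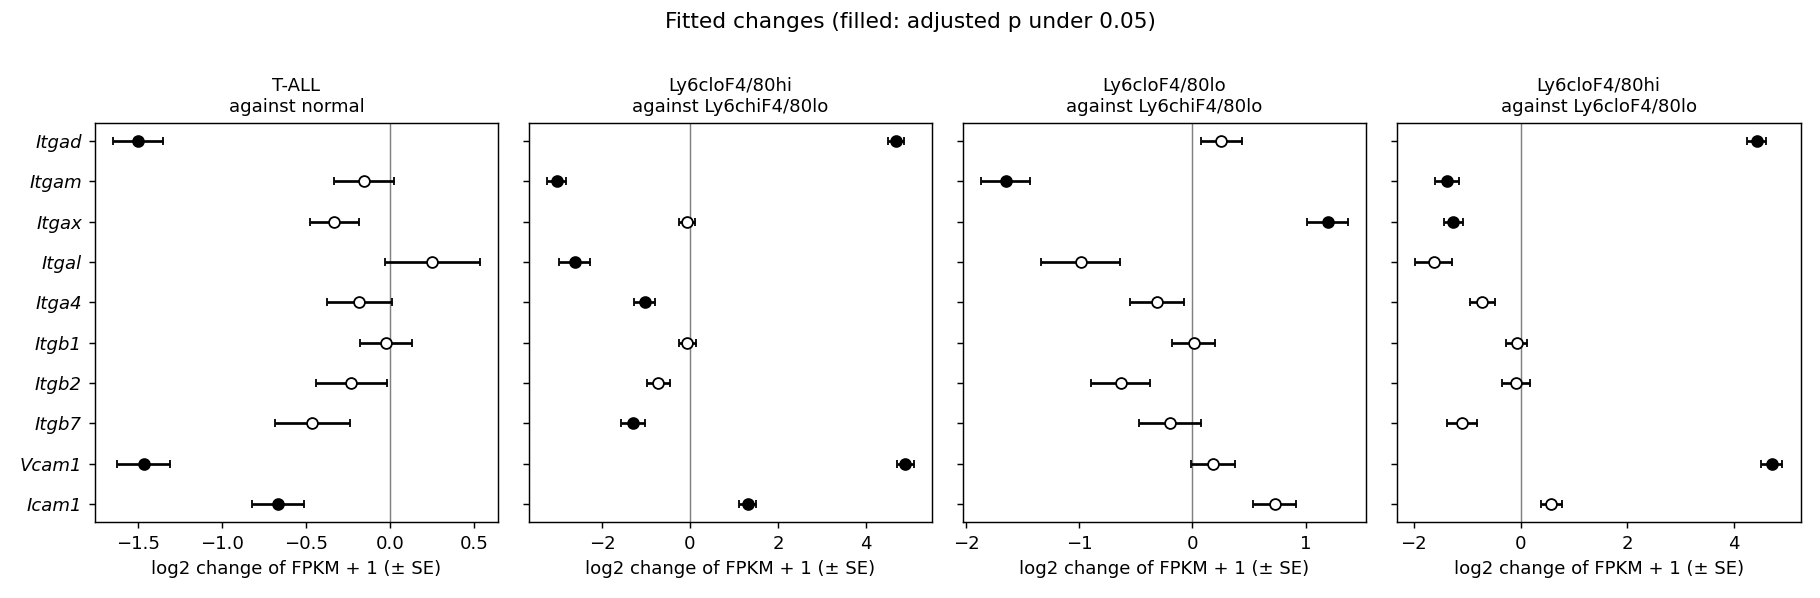
Fitted log2 change of FPKM + 1 (points) with its SE (bars) for the 10 genes in the state comparison and the 3 subset comparisons, each from the fit to all 6 libraries. Filled points have an adjusted p under 0.05: Itgad and Vcam1 lie near 4.5 or above against either F4/80lo subset, and they and Icam1 are the filled points below 0 in T-ALL against normal.

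T-ALL against normal addressed how the leukemic state related to these genes over the 3 subsets. Itgad and Vcam1 fell in T-ALL, and by similar factors, and Icam1 fell less. For Itgad, 123, 5.17 and 4.71 FPKM in T-ALL Ly6cloF4/80hi, Ly6cloF4/80lo and Ly6chiF4/80lo stood against 409, 16.9 and 12.6 FPKM in the same normal subsets. Each T-ALL library was below its normal counterpart. The fitted change was -1.504 (SE 0.15, limma adjusted p = 0.00832, subset as a block). For Vcam1, 701, 24.9 and 25.6 FPKM in the T-ALL libraries stood against 2046, 80.4 and 60.7 FPKM in normal, a change of -1.47 (SE 0.16, limma adjusted p = 0.00925). Both calls held when any single library was left out (limma adjusted p of 0.0125 to 0.0277 for Itgad and 0.0167 to 0.0304 for Vcam1), but not with no block for subset (0.682 and 0.703). Icam1 changed by -0.67 (SE 0.16, limma adjusted p = 0.0447), with each T-ALL library below its normal counterpart. It missed the threshold without any one of the 6 libraries (0.0865 to 0.12), with no filter on low values (0.0846), and without trend and robust prior (0.0578).

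In the same libraries the 12 markers of red pulp macrophages, such as Spic and the iron exporter Slc40a1, summed to 6945, 355.5 and 397 FPKM in T-ALL Ly6cloF4/80hi, Ly6cloF4/80lo and Ly6chiF4/80lo, against 17277, 953 and 813.5 FPKM in normal. Of these markers 11 were lower and 0 higher in T-ALL at an adjusted p under 0.05 (limma). Among all tested genes 3.94% were lower and 8.20% higher. Cd5l stood at 547 and 509 FPKM in T-ALL and normal Ly6cloF4/80hi. Vcam1 amounted to 10.1%, 7.01% and 6.44% of that sum in T-ALL and 11.8%, 8.43% and 7.46% in normal, and Itgad to 1.77%, 1.45% and 1.19% in T-ALL and 2.37%, 1.77% and 1.55% in normal. Both shares were thus somewhat lower in T-ALL, each from 1 library, but the markers in the sum changed by unlike amounts. C1qa, C1qb and C1qc stood at 1156, 1418 and 1306 FPKM in T-ALL Ly6cloF4/80hi, against 2567, 2603 and 2539 FPKM in normal. Slc40a1 stood at 396 against 1597 FPKM there, and Hmox1 at 634 against 2644 FPKM. The part of the list's fall in that of Vcam1 and Itgad was not tested. Icam1 amounted to 1.53%, 20% and 9.18% of the sum in T-ALL Ly6cloF4/80hi, Ly6cloF4/80lo and Ly6chiF4/80lo. The shares in normal were 0.891%, 10.8% and 8.79%, and thus nearly level with T-ALL in Ly6chiF4/80lo only.

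The other 7 genes did not pass in T-ALL against normal. Their log2 changes were -0.46 for Itgb7 (SE 0.23, limma adjusted p = 0.198), -0.33 for Itgax (SE 0.15, 0.164), -0.23 for Itgb2 (SE 0.21, 0.467), -0.18 for Itga4 (SE 0.20, 0.531), -0.16 for Itgam (SE 0.18, 0.562), -0.03 for Itgb1 (SE 0.16, 0.913) and 0.25 for Itgal (SE 0.28, 0.555). In all, 3 of 10 genes were lower and 0 higher at an adjusted p under 0.05 (limma), and also 3 and 0 at an unadjusted p under 0.05. Among all tested genes 12.1% passed, 3.94% as lower and 8.20% as higher. The median change of the group was -0.28, beside -0.03 for all genes.

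Within single subsets there was 1 library per state and no test was made. At least 2-fold lower in T-ALL were Itgad and Vcam1 in all 3 subsets and also Itgb7 in Ly6chiF4/80lo, and 0 of 10 genes were 2-fold higher in any subset. Among genes of at least 5 FPKM, the 2-fold lower share was 7.80% in Ly6cloF4/80hi, 2.12% in Ly6cloF4/80lo and 5.67% in Ly6chiF4/80lo, and the 2-fold higher share was 11.6%, 6.51% and 8.63% in that order. The log2 ratio of T-ALL to normal in Ly6cloF4/80hi, Ly6cloF4/80lo and Ly6chiF4/80lo was -1.74, -1.71 and -1.42 for Itgad and -1.54, -1.69 and -1.25 for Vcam1. For Itgal it was 0.83, 0.56 and -0.62, and for Itgb7 0.04, -0.37 and -1.07. In Ly6chiF4/80lo all 10 ratios were negative, as were those of 55.0% of tested genes. For 6 genes the sign differed between subsets, as it did for 41.7% of tested genes. The genes lower in T-ALL in all 3 subsets were Itgad, Vcam1, Icam1 and Itgax, a pattern shared by 30.0% of tested genes, and 0 were higher in all 3, against 27.9%.

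**Figure D5:**
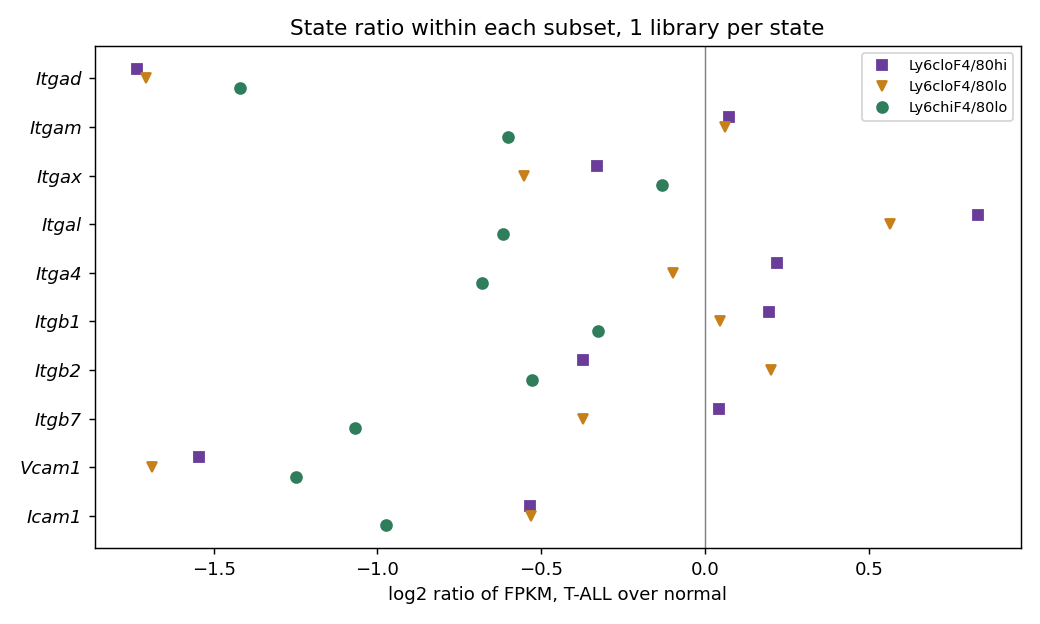
Log2 ratio of FPKM in T-ALL over normal for each gene within Ly6cloF4/80hi (squares), Ly6cloF4/80lo (triangles) and Ly6chiF4/80lo (circles), 1 library per state. Itgad and Vcam1 lie below -1 in every subset, all 10 circles lie below 0 (as for 55.0% of tested genes), and the Itgal points fall on both sides of 0.

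Other genes of the pathway were read from 4 lists drawn up by function. Among all tested genes 8.20% passed as higher and 3.94% as lower in T-ALL against normal. These shares were 7.10% and 5.68% in Ly6cloF4/80hi against Ly6chiF4/80lo, and 2.66% and 0.904% in Ly6cloF4/80hi against Ly6cloF4/80lo. In Ly6cloF4/80lo against Ly6chiF4/80lo they were 2.68% and 2.05%. Of 10 tested further integrin subunits, Itgb3, the beta chain of the platelet and vitronectin receptors, rose in T-ALL by 1.00 (limma adjusted p = 0.0185), and 0 fell. Itgb3 stood at 5.01, 9.88 and 10.8 FPKM in T-ALL Ly6cloF4/80hi, Ly6cloF4/80lo and Ly6chiF4/80lo, against 1.84, 4.45 and 5.29 FPKM in normal. The 7 megakaryocyte and platelet markers, Itgb3 among them, summed to 60.0, 54.8 and 37.9 FPKM in T-ALL and 19.2, 17.9 and 24.98 FPKM in normal, and their part was not tested. Itgb3 was lower in Ly6cloF4/80hi than in Ly6chiF4/80lo (-1.06, limma adjusted p = 0.0193), and Itga9, an alpha chain that pairs with Itgb1 and can bind Vcam1, was higher there than in Ly6chiF4/80lo and Ly6cloF4/80lo (2.64 and 2.61, limma adjusted p = 0.00622 and 0.013). Itga9 stood at 5.57 and 14.9 FPKM in T-ALL and normal Ly6cloF4/80hi and below 1 FPKM elsewhere. Between Ly6cloF4/80lo and Ly6chiF4/80lo, 0 of the 10 subunits passed (limma, also 0 at an unadjusted p under 0.05).

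Among 7 tested further ligands, Spp1, the secreted ligand osteopontin, rose in T-ALL by 1.51 (limma adjusted p = 0.0345), with 3.77, 13.3 and 5.11 FPKM in T-ALL Ly6cloF4/80hi, Ly6cloF4/80lo and Ly6chiF4/80lo against 1.22, 1.63 and 2.10 FPKM in normal. F11r, a junctional ligand of LFA-1, was higher in Ly6cloF4/80hi than in either F4/80lo subset (2.01 and 2.03, limma adjusted p = 0.0181 and 0.0361). No other ligand passed in any comparison. Of 31 tested activation and adaptor genes, 0 passed in T-ALL against normal (limma, 9 at an unadjusted p under 0.05, 1 higher and 8 lower), in Ly6cloF4/80lo against Ly6chiF4/80lo (limma, 8 unadjusted) or in Ly6cloF4/80hi against Ly6cloF4/80lo (limma, 7 unadjusted). In Ly6cloF4/80hi against Ly6chiF4/80lo, 3 were higher and 6 lower, beside 7.10% and 5.68% of all tested genes. Examples were Ptk2, the focal adhesion kinase (2.15), and the actin linker Actn1 (1.63) among the higher, and the Rap1 inhibitor Rap1gap2 (-1.80) and vinculin, Vcl (-1.58), among the lower.

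Of 16 tested selectins and other adhesion genes, 2 fell and 0 rose in T-ALL, beside 3.94% and 8.20% of all tested genes. Siglec1, the sialic acid receptor of splenic macrophages, changed by -1.29 (limma adjusted p = 0.0108), with 12.1, 0.50 and 1.58 FPKM in T-ALL Ly6cloF4/80hi, Ly6cloF4/80lo and Ly6chiF4/80lo against 31.9, 2.57 and 5.28 FPKM in normal. Sirpa, the receptor for CD47 on phagocytes, changed by -0.70 (limma adjusted p = 0.0407). Between Ly6cloF4/80hi and Ly6chiF4/80lo 3 were higher and 3 lower, beside 7.10% and 5.68% of all tested genes. Among them were Esam (2.505), Siglec1 (2.37), Sirpa (1.501) and Ceacam1 (-3.39). Against Ly6cloF4/80lo, Siglec1 (3.17) and Sirpa (1.64) were higher in Ly6cloF4/80hi and Ceacam1 (-1.92) and Cd9 (-1.19) lower. Esam, a junctional adhesion molecule, was the 1 gene of this list that passed in Ly6cloF4/80lo against Ly6chiF4/80lo (2.67, limma adjusted p = 0.00621). Its levels were 15.3 and 18.9 FPKM in T-ALL and normal Ly6cloF4/80hi, 15.7 and 23.4 FPKM in Ly6cloF4/80lo, and 1.95 and 2.40 FPKM in Ly6chiF4/80lo.

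The genes outside the group most like each remaining member, by Pearson r over the 6 libraries and with no test, were these. For Icam1 they were Sesn1, Hsd17b4 and Rasgef1b (r = 0.998 to 0.989), and for Itgam Nhsl2, Atp8b4 and Pik3r6 (0.996 to 0.995). Itgax was most like Cd274, which encodes PD-L1, then Cdc14a and Rubcnl (0.991 to 0.986), and Itgal was most like Arhgef10l, Lmo4 and Thbd (0.998 to 0.996). The closest to Itga4 were Arhgap1, Ccdc88c and St3gal1 (0.998 to 0.996), and to Itgb7 Add3, Cdc42se1 and Ccdc97 (0.998 to 0.990). Itgb2 was closest to Flna, the actin cross-linker filamin A, then Klf10 and Tmcc1 (0.998 to 0.991). Itgb1, which hardly varied, was matched least well, by Gatc, Mrs2 and Casp2 (0.987 to 0.961). The third match was Abcc3 for Itgad (0.998) and Epb41l3 for Vcam1 (0.997).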

How the data were processed

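The deposited values are FPKM per gene. Per the submitters' processing notes, the authors used Bowtie2 version 2.2.5 and RSEM; the RSEM version, genome build, annotation and strand setting were not given in the sources used here. Genes absent from a library's file were set to 0 FPKM. Of 16058 Entrez identifiers 16017 (99.7%) received a symbol from the RefSeq table of GRCm38.p6, used for names, neighbours and promoter stretches only. RSEM shares fragments between genes with common sequence, so shared 50-base stretches were counted in GENCODE M21 transcripts. Depth was estimated from the spacing of low FPKM values with annotated transcript lengths, which exceed effective lengths, so true depth is somewhat higher.

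FPKM were put on the scale log2(FPKM + 1), and limma (version 3.58.1, with statmod version 1.5.0, under R version 4.3.3) fitted subset and state in 1 model of all 6 libraries with a trended, robust prior. The fit has 2 residual degrees of freedom and a median total of 6.23, and no term for a difference between subsets in the state change could be fitted. Genes of at least 1 FPKM in at least 2 libraries were tested, two-sided, with Benjamini-Hochberg adjustment over all 11616, and an adjusted p under 0.05 passed. An exact test of 3 against 3 libraries cannot go below p = 0.1. The fit and the depth estimate were tested on simulated data. Tables and plots were made in Python (version 3.11.15) using pandas 2.3.3, numpy 2.4.6 and matplotlib 3.10.9.

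The 10 genes and all lists were chosen with earlier results of these data known. Named beside the 10 genes were, by rule, up to 4 genes per list and comparison with the largest change among those that passed and reached 5 FPKM, and the 3 most similar genes of at least 10 FPKM. The alternatives were median-ratio rescaling, a pseudocount of 0.1, quantile normalization, no filter, a filter on a mean of 5 FPKM, no block, no trend or robust prior, the 4 libraries of 2 subsets alone, and each library left out in turn.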

Additional observations from a re-analysis of the deposited data

Results flagged for a closer look

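For 6 genes the ratio of T-ALL to normal was positive in at least 1 subset and negative in another, as it was for 41.7% of tested genes. The span between the highest and the lowest log2 ratio was 1.45 for Itgal, 1.11 for Itgb7, 0.90 for Itga4, 0.73 for Itgb2, 0.68 for Itgam and 0.52 for Itgb1. Ly6cloF4/80hi had the highest ratio for Itgal, Itgb7, Itga4, Itgam and Itgb1, and Ly6chiF4/80lo had the lowest for these genes and Itgb2. The share of all tested genes with such an order was not computed, so nothing is read from it about the group. With 1 library per subset and state these differences were not tested.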

How the results depend on the processing

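Itgad and Vcam1 kept their direction in T-ALL against normal and their excess in Ly6cloF4/80hi under every alternative run, and their calls in these comparisons under every one except the fit with no block, where Vcam1 still passed against Ly6chiF4/80lo. With no block, 0 of the 10 genes passed in T-ALL against normal (limma, 0 at an unadjusted p under 0.05), 3 in Ly6cloF4/80hi against Ly6chiF4/80lo, 0 in Ly6cloF4/80lo against Ly6chiF4/80lo (2 unadjusted) and 0 in Ly6cloF4/80hi against Ly6cloF4/80lo (7 unadjusted), since the spread then includes the other factor. With no filter, 0 passed in Ly6cloF4/80lo against Ly6chiF4/80lo (limma, 4 unadjusted) and 2 in Ly6cloF4/80hi against Ly6cloF4/80lo; over all genes 370, 867, 156 and 173 passed in the state comparison, Ly6cloF4/80hi against Ly6chiF4/80lo, Ly6cloF4/80lo against Ly6chiF4/80lo and Ly6cloF4/80hi against Ly6cloF4/80lo, beside 1410, 1485, 549 and 414 as reported and 161, 197, 0 and 0 with no block (1335 and 1179 unadjusted for the zeros). Median-ratio rescaling left 1 gene in Ly6cloF4/80lo against Ly6chiF4/80lo, and small differences there turned to -0.200 for Itgb1 and -0.027 for Vcam1, and in Ly6cloF4/80hi against Ly6cloF4/80lo to 0.027 for Itgb1 and 0.021 for Itgb2. Quantile normalization gave -0.034 for Itgb1 in Ly6cloF4/80lo against Ly6chiF4/80lo. The cause of these shifts was not tested.

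Leaving out each library in turn, 2 genes passed in T-ALL against normal each time, 4 to 7 in Ly6cloF4/80hi against Ly6chiF4/80lo, 0 to 2 in Ly6cloF4/80lo against Ly6chiF4/80lo and 2 to 6 in Ly6cloF4/80hi against Ly6cloF4/80lo. Over all genes the ranges were 283 to 923, 617 to 1277, 81 to 718 and 127 to 668. Log2 changes that turned their sign ranged, in T-ALL against normal, from -0.269 to 0.064 for Itgam, -0.027 to 0.685 for Itgal, -0.383 to 0.059 for Itga4 and -0.137 to 0.118 for Itgb1. In Ly6cloF4/80hi against Ly6chiF4/80lo they ranged from -0.220 to 0.088 for Itgax and -0.280 to 0.158 for Itgb1. In Ly6cloF4/80lo against Ly6chiF4/80lo they ranged from -0.679 to 0.052 for Itga4, -0.207 to 0.231 for Itgb1, -0.647 to 0.249 for Itgb7 and -0.007 to 0.374 for Vcam1. In Ly6cloF4/80hi against Ly6cloF4/80lo they ranged from -0.237 to 0.091 for Itgb1 and -0.406 to 0.244 for Itgb2. None of these had passed. Of the gene values under all alternatives, 469 kept direction and side of the threshold, 49 no longer passed, 8 newly passed and 24 turned. A subset or state with 1 library left was assumed to vary like the others.

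Subset served as the block for state, which pairs each T-ALL library with the normal library of its subset. No pairing by mouse was possible, since the labels do not say whether separate mice or pools gave the fractions of a state. The pairs are thus not known to be independent of each other. Depth limits the 10 genes to a counting error of at most 8.89%.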
